A study of Mus musculus with 24 samples.

Results

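The genes described here encode the respiratory chain, which is complexes I to IV of the inner mitochondrial membrane, and the ATP synthase, called complex V. They were chosen by gene symbol: nuclear Nduf, Sdh, Uqcr, Cox and Atp5 subunit names, and the protein genes of mitochondrial DNA, which carry the prefix mt-. Of 110 symbols that matched, 8 with a pseudogene suffix were dropped and 8 did not reach 1 FPKM (counts scaled to exon length and library total) in 2 libraries. The other 94 genes are the members, 81 nuclear and 13 mitochondrially encoded, out of 11774 genes tested and 56691 in the deposited table. Grouped by gene name, nuclear members numbered 37 in complex I, 4 in complex II, 8 in complex III, 15 in complex IV and 17 in complex V. Mitochondrial members numbered 7, 0, 1, 3 and 2 in the same order of complexes. At the threshold, Ndufs6b passed with 2 libraries at 1 FPKM and a highest level of 1.72 FPKM, while Ndufb4c had 1 such library and a highest level of 1.10 FPKM. These FPKM values, and those given below for genes under the filter, use library totals; all other levels use TMM-scaled totals. Ndufs6b and Cox6c2 are annotated as processed pseudogenes.

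Complexes I, III and IV pass electrons from NADH to oxygen and pump protons, complex II feeds in electrons from succinate, and complex V lets the protons flow back to make ATP. Each pumping complex and complex V is built from nuclear subunits made in the cytosol and a few core subunits encoded in mitochondrial DNA, so both genomes must be expressed to build them. Alveolar macrophages are known for a metabolism that relies on fatty acids and oxidative phosphorylation, and LPS, a bacterial cell wall component sensed through Tlr4, is known to shift other macrophages towards glycolysis.

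Mouse alveolar macrophages were lavaged at 5 postnatal ages, named by the day as D1, D3, D7, D21 and D49, and cultured for 4 h with LPS at 400 ng/mL or in medium without it (control). There were 24 libraries: 3 LPS and 2 control ones of D1 cells, 2 LPS and 2 control ones of D7 cells, and 2 LPS and 3 control ones for each of D3, D21 and D49. Cells of several mice were pooled, and the labels name neither the strain nor separate animals for the replicates of a group, so a p-value reflects only how these libraries varied, and that variation may be technical. These are short cultures of lavaged cells, and in such bulk samples fewer cells of a type and less RNA per cell cannot be told apart.

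Library totals were 15.8 to 23.3 (in units of 1e6 counts). Markers of the labelled cell type were present throughout: 14 of 14 alveolar macrophage genes were detected in every group, and their summed level was 8681 to 12361 CPM (counts scaled to library total) in D1 libraries and 30274 to 50484 CPM in D49 libraries. Markers of other tissues were present too and moved with treatment. The summed level of 13 skeletal muscle genes was 0.1 to 6.1 CPM in LPS libraries and 4.7 to 378.7 CPM in control libraries, the highest being D21 control 1, and LPS libraries were lower at each age except D3, where the ranges overlapped. The summed level of 6 exocrine gland genes was 858 to 1326 CPM in LPS libraries and 0.24 to 0.62 CPM in control libraries at D1, but 7.27 to 9.35 CPM in LPS libraries and 1306 to 2395 CPM in control libraries at D49; D3 and D7 had the D1 direction and D21 the D49 direction. Their part in the results below was not tested.

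A second feature of the libraries touches many members. Libraries differed in how strongly GC-rich transcripts were represented relative to GC-poor ones, and the GC deviation, the log2 level of the GC-richest tested genes minus that of the GC-poorest, each relative to the mean library, ran from -3.17 to 2.84. Of the 24 libraries, 14 lay within 1 of zero. Those beyond 1 were at 1.59 to 2.84 in D1 and D3 libraries and at -3.17 to -1.34 in D21 and D49 libraries. At D21 the controls were at -0.02, -2.14 and -1.68 and the LPS libraries at 0.06 and -0.20. At D49 the controls were at -0.09, -2.09 and -3.17 and the LPS libraries at -0.20 and -1.34. Library GC is thus partly confounded with age and, at these later ages, with treatment. The mitochondrially encoded members have 31.9% to 41.1% GC, and the nuclear members 37% to 63.3%. The first 120 coding bases of 5 members that the results turn on are shown, in which capitals mark G and C: 47 of 120 in mt-Co1 (catalytic subunit of complex IV) and in mt-Nd2 (a membrane subunit of complex I), 61 in Cox4i1 (a nuclear subunit of complex IV), 68 in Ndufv2 (an iron-sulfur subunit of complex I) and 86 in Atp5d (the delta subunit of complex V). These stretches do not rank the genes as their whole transcripts do: over the transcript Ndufv2 has 42% GC and a slope on GC deviation of -0.17 (log2 per unit, fitted as described below), below the 58% of Cox4i1. The sequences are from GENCODE M21 transcripts.
mt-Co1: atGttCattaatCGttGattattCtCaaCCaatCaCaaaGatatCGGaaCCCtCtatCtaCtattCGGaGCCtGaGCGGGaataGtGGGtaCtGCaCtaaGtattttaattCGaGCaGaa
mt-Nd2: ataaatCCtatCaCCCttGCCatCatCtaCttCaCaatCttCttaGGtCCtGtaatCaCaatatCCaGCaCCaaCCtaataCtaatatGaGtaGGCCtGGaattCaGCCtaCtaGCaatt
Cox4i1: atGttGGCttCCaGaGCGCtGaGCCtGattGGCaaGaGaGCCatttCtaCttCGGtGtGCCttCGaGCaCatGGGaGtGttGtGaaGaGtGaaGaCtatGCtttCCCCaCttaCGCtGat
Ndufv2: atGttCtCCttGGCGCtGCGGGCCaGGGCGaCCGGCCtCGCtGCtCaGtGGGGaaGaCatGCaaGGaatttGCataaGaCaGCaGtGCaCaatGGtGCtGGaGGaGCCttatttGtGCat
Atp5d: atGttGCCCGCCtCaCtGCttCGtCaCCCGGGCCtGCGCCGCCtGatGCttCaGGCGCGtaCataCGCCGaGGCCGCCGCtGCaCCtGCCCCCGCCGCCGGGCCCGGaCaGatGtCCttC

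How members followed the library GC deviation varied with their own GC content. In the fit of all 24 libraries the 13 mitochondrially encoded members had slopes of -0.37 to -0.28 log2 units per unit of GC deviation, with a median of -0.33. The nuclear members had slopes of -0.31 to 1.67 with a median of 0.36, and 59 of the 81 were above zero; over all tested genes the median slope was 0.01. Some members had slopes near zero, such as Sdhd at -0.03. Across the 94 members the slope and the GC percent had a Spearman correlation of 0.71, and across 11450 tested genes of known GC it was 0.78. The GC deviation is itself computed from the GC-richest and GC-poorest tested genes, members left out. A positive correlation over tested genes is therefore built in and is no test. Both values are descriptions across genes, which share the same libraries. Cox4i1 is an example of a single gene, with 58% GC and a slope of 1.35. Its level was 30.02, 4.00 and 1.85 FPKM in D49 control libraries against 31.9 and 215 FPKM in D1 control libraries. What set this spread was not tested. Libraries of near-zero GC deviation, the first one of each group, had a similar Cox4i1 level at both ages, whereas the other D49 libraries lay far lower and the other D1 library far higher. The comparisons below therefore carry the GC deviation of the library as a covariate, and levels described as GC-adjusted have its fitted term removed.

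**Figure D1:**
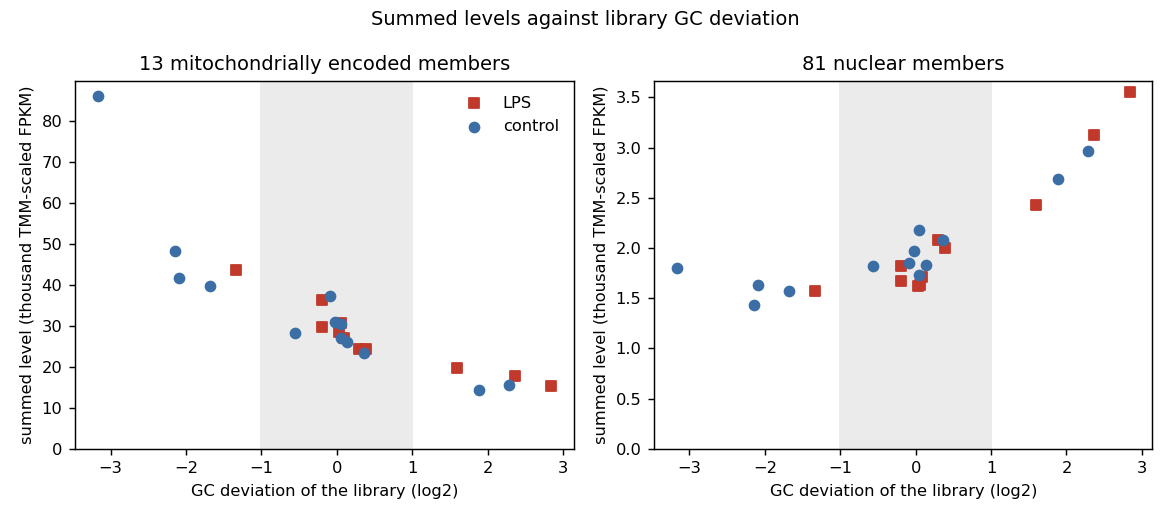
Summed level of the 13 mitochondrially encoded (left) and 81 nuclear (right) members, in TMM-scaled FPKM, against the GC deviation of each of the 24 libraries; red squares are LPS and blue circles control libraries, and the grey band covers deviations within 1. The mitochondrial sum was 86056 FPKM at the lowest deviation and 15188 FPKM at the highest, and the nuclear sum 1804 FPKM and 3556 FPKM in the same libraries.

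Mitochondrially encoded transcripts held most of the members' counts. Of all counts they took 1.84% to 8.09% per library, and the 81 nuclear members together took 0.237% to 0.625%. The median FPKM over libraries was 12191 for mt-Co1, 4755 for mt-Cytb (cytochrome b of complex III), 4502 for mt-Nd1, 2279 for mt-Nd2, 1739 for mt-Nd5, 1530 for mt-Nd4 and 1051 for mt-Nd6, all subunits of complex I after the first 2. Levels listed for the other 6 were far lower, from 81.9 FPKM for mt-Co2 and 58.4 FPKM for mt-Co3 in complex IV and 47.3 FPKM for mt-Atp6 in complex V, to 13.6 FPKM for mt-Nd3, 6.23 FPKM for mt-Nd4l and 5.92 FPKM for mt-Atp8. Of the transcripts of mt-Atp6, mt-Co2, mt-Co3, mt-Nd3 and mt-Nd4l, 99% to 99.9% have a near-identical copy annotated on chromosome 1. So do 63.6% of mt-Nd4 and 31.3% of mt-Co1, but 0% of mt-Atp8. Summed over libraries, the longest matches held 48254 counts for mt-Atp6, 27890 for mt-Co2, 25158 for mt-Co3, 1966 for mt-Nd3 and 1384 for mt-Nd4l. Those genes had at most 1009, 2301, 2179, 238 and 76 counts in a library. The copies of mt-Nd4 and mt-Co1 held 10464 and 15220 counts, and the genes at least 20825 and 183385 in each library. Reads of the genes with copies could thus be split by the authors' counting, and their levels are uncertain and may be too low. Whether the counting used strand is not given, so the level of mt-Nd6, which lies on the opposite strand to the other 12, is uncertain as well.

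Among nuclear members the median FPKM over libraries was highest for Atp5b (beta subunit, which holds the catalytic sites of complex V) at 156, Uqcrb (complex III) at 126, Atp5a1 (alpha subunit of complex V) at 112 and Atp5c1 (gamma subunit, the rotor shaft) at 79.2. The other subunits looked at stood lower. In complex I, Ndufs1 was at 12.6 and Ndufv1, which binds NADH and FMN, at 3.73; in complex II, Sdhd was at 44.6, Sdha at 38.5, Sdhb at 17.8 and Sdhc at 12.1; in complex III, Uqcrfs1, the Rieske iron-sulfur protein, was at 66.3 and Uqcrc1 at 10.4; in complex IV, Cox5a was at 30.8 and Cox4i1 at 28.9 FPKM. These are levels per length, and the ranges over libraries were wide: the ratio of the highest to the lowest library had a median of 7.85 over the 75 nuclear members above zero in every library, and of 3.16 after adjustment for GC. For the 13 mitochondrially encoded members the same medians were 6.4 and 2.07.

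Where a subunit exists as paralogs, the widely expressed isoform had the higher level. Ndufa4, a subunit associated with complex IV and named for complex I, had a median of 34.1 FPKM, while its hypoxia-induced relative Ndufa4l2, below the filter, reached at most 0.0783 FPKM. Cox4i1 was present and Cox4i2, known from lung and hypoxia, reached at most 0.31 FPKM. Cox6a1 stood at 17.9 FPKM against 0.395 FPKM for Cox6a2, the heart and muscle form, and Cox7a2 at 50.9 FPKM and Cox7a2l, a factor of supercomplex assembly, at 30.4 FPKM against 0.608 FPKM for the muscle form Cox7a1. Cox6b1 was at 73.3 FPKM against 1.25 FPKM for Cox6b2 and Cox7b at 45.2 FPKM, while Cox7b2 reached at most 0.545 FPKM. Cox8a was at 19.5 FPKM, Cox8b and Cox8c being below the filter. The 3 genes for the same c subunit of complex V stood at 50.6 FPKM for Atp5g3, 9.08 FPKM for Atp5g2 and 1.22 FPKM for Atp5g1.

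With age, the size of the differences and the calls depended on how library GC was treated. In the fit without a GC term, all 13 mitochondrially encoded members passed as higher in D49 than in D1 controls, with a median log2 fold change of 1.47. Of the 81 nuclear members 28 fell and 4 rose, with a median of -1.24, and 42.8% of all tested genes passed. With the GC term 1 mitochondrially encoded member rose and 0 nuclear members passed, the medians being 0.46 and 0.01, and 10.4% of all tested genes passed. All tested genes had a median of 0.10 in that fit. The 8 nuclear members at an unadjusted p under 0.05 in edgeR's quasi-likelihood test compare with 1 nuclear member called by DESeq2 with the same GC term, and 2543 of the tested genes were at that unadjusted level.

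**Figure D2:**
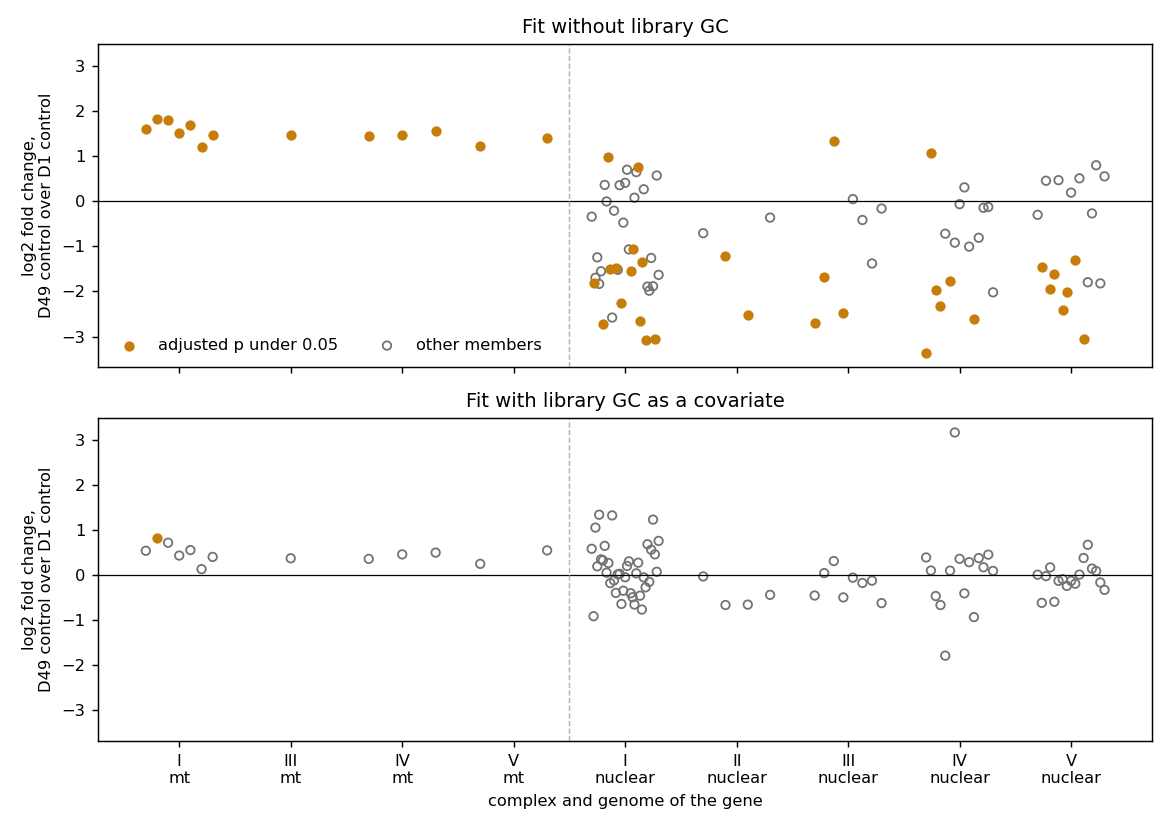
Log2 fold change of each member between D49 and D1 controls, without (top) and with (bottom) library GC as a covariate, by complex and genome; filled points passed at an adjusted p under 0.05. The mitochondrially encoded members lay at 1.20 to 1.83 in the top panel and at 0.13 to 0.82 in the bottom panel, and the nuclear members spread over -3.36 to 1.34 and -1.79 to 3.16.

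The sums by library show the same dependence. The mitochondrial sum was 37273, 41594 and 86056 FPKM in D49 control libraries, against 23341 and 15508 FPKM in D1 control libraries, and the nuclear sum was 1846.5, 1630 and 1804 FPKM in D49 controls, against 2079 and 2965.5 FPKM in D1 controls. In both cases the groups did not overlap. After GC adjustment the mitochondrial sum was 36552, 25726 and 41587 FPKM in D49 controls, against 25340 and 26213 FPKM in D1 controls, and the groups overlapped. The adjusted nuclear sum was 1865, 1843 and 1932 FPKM in D49 controls, against 1987 and 1846 FPKM in D1 controls, and the groups overlapped as well.

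Other ways of handling library GC were also run, with different outcomes for the nuclear members. In the 14 libraries with a GC deviation within 1, which leave 1 library in each of the 2 control groups compared, 3 mitochondrially encoded members rose (mt-Nd2, mt-Nd1 and mt-Nd4) and 0 nuclear members passed, with medians of 0.56 and -0.25, and 12.6% of all tested genes passed. With 1 library in each of these control groups the spread comes from other groups, so unadjusted p-values of that fit are not reported here. A smooth offset for gene GC in each library called 3 mitochondrially encoded members up, 6 nuclear members up and 19 nuclear members down, with 28.8% of all tested genes passing.

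The first libraries of each group all had a GC deviation between -0.2 and 0.36, and are given here without adjustment, 1 library per group and with no test. Their deviation still differed by age, at 0.36 in control and 0.29 in LPS at D1, against -0.09 and -0.20 at D49. Among the control libraries the mitochondrial sum was 23341, 25961, 27080, 30812 and 37273 FPKM at D1, D3, D7, D21 and D49. Among the LPS libraries it was 24217, 27020, 28560, 30608 and 36281 FPKM at the same ages. The D49 over D1 ratio was thus 1.5 in LPS and 1.6 in control libraries for the mitochondrial sum, against 0.8 and 0.89 for the nuclear sum. GC adjustment made these differences smaller. The adjusted mitochondrial sum was 34664 FPKM at D49 against 25910 FPKM at D1 in LPS, and 36552 against 25340 FPKM in control libraries. The adjusted nuclear sum was 1708 against 2000 FPKM in LPS and 1865 against 1987 FPKM in control libraries. Summed alveolar macrophage markers were higher at D49 than at D1 too, as given above, and neutrophil markers were 66 to 94.6 CPM in D49 and 109 to 236 CPM in D1 libraries. Erythroid markers were 0.261 to 2.15 CPM in D49 controls against 19.5 to 21.8 CPM in D1 controls, and lung epithelium markers 11.8 to 22.5 CPM in D49 controls against 45.5 to 47.4 CPM in D1 controls. The part of these markers in the age differences was not tested.

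The member that passed with age under each treatment of GC was mt-Nd2, a core subunit of complex I. Its GC-adjusted level in controls was 2015 and 2136 FPKM at D1, 2059, 1626 and 2426 FPKM at D3, 2301 and 2018 FPKM at D7, 3169, 3105 and 2804 FPKM at D21, and 3971, 2707 and 4301 FPKM at D49. All D21 and D49 control libraries lay above all D1, D3 and D7 control libraries. The log2 fold change of D49 over D1 controls was 0.82 ± 0.24 (SE), with an adjusted p of 0.0244 in edgeR's quasi-likelihood test, and it passed in 17 of 24 fits that each left out 1 library; without D1 control 1 no member passed. It was 1.06 in the 14 libraries of near-zero deviation, 0.68 with the smooth GC offset and 0.76 by DESeq2, and passed in each; in the 14 libraries each of these control groups has 1 library, which is assumed to vary like the other groups. The other 12 mitochondrially encoded members had values of 0.13 to 0.71 and did not pass.

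Mitochondrially encoded transcripts have similar slopes on library GC, as given above, and their shares of one another give a view of mt-Nd2 that needs no scaling between libraries. As a percentage of the counts of all 13 genes, mt-Nd2 was 8.12, 8.08% in LPS and 8.82, 8.32 and 8.12% in control libraries at D49, and 7.62 and 7.81% in LPS and 8.40, 8.26 and 8.22% in control libraries at D21. At D1, D3 and D7 its share was 5.95% to 6.93% over 7 LPS libraries and 6.00% to 6.73% over 7 control libraries. The 10 libraries of the 2 later ages did not overlap the 14 libraries of the 3 earlier ages. Another complex I subunit, mt-Nd5, lay the other way, at 6.05% to 8.01% in the later and 8.16% to 9.97% in the earlier libraries, again without overlap. The split between D7 and D21 was drawn after these values were seen and has no test; in the fit of levels mt-Nd5 did not pass between D49 and D1 controls, at 0.13 ± 0.24 on the log2 scale with an adjusted p of 0.819 in edgeR's test. The share of mt-Co1 was 45.4% to 50.5% at the later and 46.8% to 52.0% at the earlier ages, and overlapped.

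**Figure D3:**
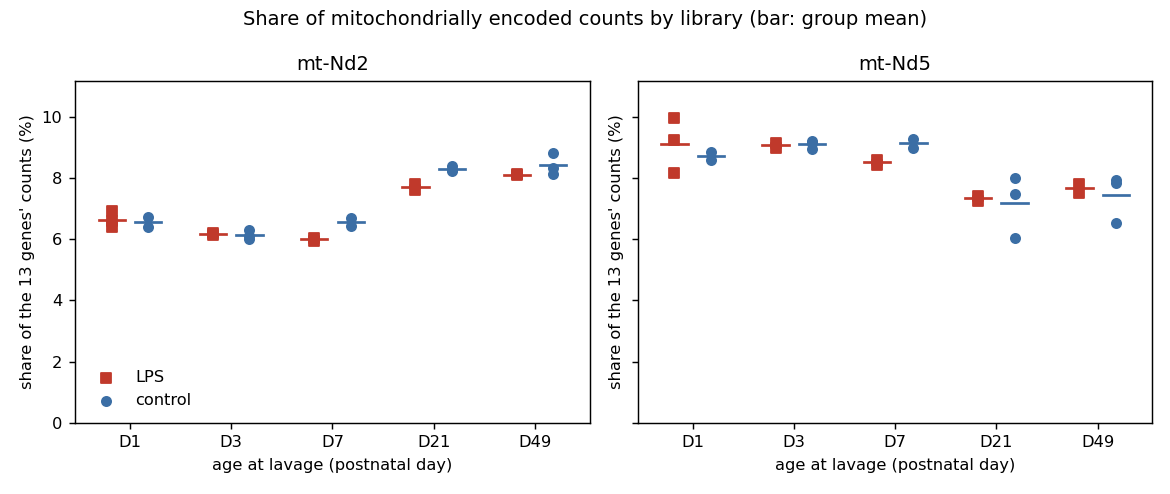
Share of the counts of the 13 mitochondrially encoded members taken by mt-Nd2 (left) and mt-Nd5 (right) in each library, by age; red squares are LPS, blue circles control libraries, and bars group means. The mt-Nd2 share is 7.62% to 8.82% at D21 and D49 and 5.95% to 6.93% at the earlier ages, and the mt-Nd5 share is lower at D21 and D49.

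Allowing any difference among the 5 control ages, 6 members passed: mt-Nd2, Ndufb10, Sdhb, Cox6c, Cox7a2 and Cox7b, with 17.2% of all tested genes passing. Sdhb, the iron-sulfur subunit of complex II, had GC-adjusted levels of 20.3 and 16.9 FPKM at D1, 20.9, 13.2 and 35.3 FPKM at D3, 21.7 and 33.0 FPKM at D7, 17.9, 13.1 and 16.1 FPKM at D21 and 15.3, 10.2 and 9.44 FPKM at D49. The D49 libraries lay below the D1 and D7 libraries and overlapped those of D3 and D21, with an adjusted p of 0.0365 in edgeR's test over 4 age differences. Cox7a2, a small subunit of complex IV, was at 48.4 and 51.1 FPKM at D1 and 29.0, 20.1 and 29.0 FPKM at D49 after GC adjustment, with a peak of 104 FPKM in 1 D3 library and an adjusted p of 0.0171. Cox7b, another small subunit of complex IV, was at 61.1 and 60.6 FPKM at D1, 41.5, 54.0 and 25.8 FPKM at D3 and 36.1 and 32.0 FPKM at D7. It was at 49.4, 34.7 and 54.5 FPKM at D21 and 53.6, 59.2 and 93.0 FPKM at D49, with an adjusted p of 0.0287 in edgeR's test. Its D7 libraries lay below those of D1 and D49 and overlapped those of D3 and D21. In the 14 libraries of near-zero GC deviation mt-Nd2 alone of the 6 passed.

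After LPS the 13 mitochondrially encoded members did not pass at any age or averaged over ages, with edgeR's test or DESeq2. Averaged over the 5 ages, where precision was greatest, their log2 fold changes lay between -0.14 and 0.10 with a median of 0.01 and standard errors of 0.09 to 0.23, and 0 were at an unadjusted p under 0.05. Of the nuclear members 2 rose and 9 fell, 11 of 94 members in all, while 41.2% of all tested genes passed. The count was 5 without D21 LPS 2 and 18 without D49 control 3. These directions depended on the GC term. Without it, 43 nuclear members lay above 0 and 38 below, and all 13 mitochondrially encoded members lay below 0, at -0.42 to -0.11. With the GC term, 18 nuclear members lay above 0 and 63 below. In that fit the nuclear median was -0.17, beside a median of -0.03 over all tested genes. Grouped by gene name, which puts Ndufa4 in complex I, complex I had 0 members that rose and 5 that fell of 37, with a median of -0.25; complex II 0 of 4, with a median of -0.18; complex III 2 that rose and 1 that fell of 8, with a median of 0.10. Complex IV had 1 that fell of 15, with a median of 0.02, and complex V 2 that fell of 17, with a median of -0.15.

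**Figure D4:**
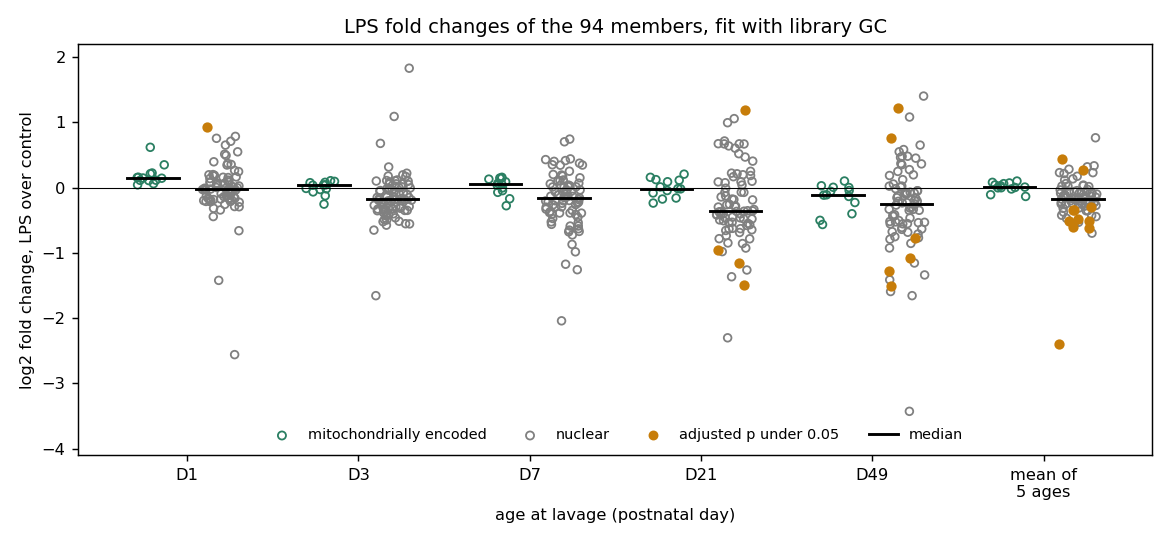
Log2 fold change of LPS over control for the 94 members at each age and averaged over the 5 ages, from the fit with library GC; for each age the mitochondrially encoded members are on the left and the nuclear members on the right, filled points passed at an adjusted p under 0.05, and bars are medians. The nuclear medians were -0.02, -0.18, -0.16, -0.36 and -0.25 from D1 to D49, and the mitochondrially encoded ones lay between -0.11 and 0.15.

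Ndufv2, which carries an iron-sulfur cluster next to the NADH site of complex I, was the member with the lowest adjusted p. Its GC-adjusted level was 18.9, 19.3 and 17.0 FPKM in LPS against 23.4 and 21.6 FPKM in control cells at D1, and 17.0 and 18.4 FPKM in LPS against 26.2, 18.0 and 34.9 FPKM in control cells at D3. At D7 it was 17.7 and 17.6 FPKM in LPS against 29.2 and 26.9 FPKM in control cells. At D21 it was 16.6 and 16.4 FPKM in LPS against 28.0, 24.2 and 19.4 FPKM in control cells, and at D49 16.6 and 16.4 FPKM in LPS against 25.8, 24.7 and 20.5 FPKM in control cells. LPS libraries were all below control libraries at 4 of 5 ages, the exception being D3, and the 11 LPS libraries lay within 16.4 to 19.3 FPKM while the 13 control libraries spread over 18.0 to 34.9 FPKM. The averaged log2 fold change was -0.52 ± 0.11 (SE), with an adjusted p of 0.000327 in edgeR's quasi-likelihood test. It passed in each of the 24 fits that left out 1 library, without the GC term (-0.63), in the 14 libraries (-0.60), with the smooth offset (-0.54) and by DESeq2 (-0.47).

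The other 4 members with complex I names that fell had higher adjusted p-values. Ndufb5, an accessory subunit of the membrane arm, was at 4.39 to 6.19 FPKM with a median of 5.11 in LPS and at 3.66 to 8.35 FPKM with a median of 6.39 in control libraries after GC adjustment, and was lower in all LPS than all control libraries at 4 of 5 ages, the exception being D49. Its averaged log2 fold change was -0.34 ± 0.12 (adjusted p = 0.0208, edgeR), and it passed in all 4 alternatives just named. Ndufb5 shares 16.9% of its transcript with Mrpl47, so its reads could be split. Ndufs8 (a core iron-sulfur subunit), Ndufa13 (also known as Grim19) and Ndufa4 fell by 0.48, 0.60 and 0.35 on the log2 scale in the main fit. Ndufs8 lost its call and its sign without the GC term, at 0.11, and Ndufa13 was at -0.04 there. Ndufa13 and Ndufa4 each passed in 1 of those 4 alternatives, DESeq2. The redox subunits Ndufv1 (-0.24 ± 0.13) and Ndufs1 (-0.25 ± 0.11) did not pass.

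In complex III, Uqcrfs1 rose. Its GC-adjusted level was 78.1, 63.2 and 59.2 FPKM in LPS against 67.5 and 59.0 FPKM in control cells at D1, 65.4 and 63.3 FPKM in LPS against 61.0, 63.0 and 57.8 FPKM in control cells at D3, and 65.8 and 65.3 FPKM in LPS against 51.1 and 45.6 FPKM in control cells at D7. At D21 it was 70.0 and 71.7 FPKM in LPS against 63.8, 52.4 and 69.1 FPKM in control cells, and at D49 79.2 and 88.4 FPKM in LPS against 56.3, 74.2 and 37.2 FPKM in control cells. LPS libraries were all above control libraries at 4 of 5 ages, and overlapped them at D1. The averaged log2 fold change was 0.28 ± 0.11 with an adjusted p of 0.0371 in edgeR's test, and it passed without the GC term (0.33), in the 14 libraries (0.35), with the smooth offset (0.26) and by DESeq2 (0.33), but in only 13 of 24 fits that left out 1 library. Uqcrq (0.44 ± 0.17) rose and Uqcr11 (-0.52 ± 0.19) fell, and both lost their calls without the GC term and in the 14 libraries. No complex II member passed: Sdha was at -0.11 ± 0.10, Sdhb at -0.25 ± 0.15, Sdhc at 0.12 ± 0.13 and Sdhd at -0.25 ± 0.12.

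**Figure D5:**
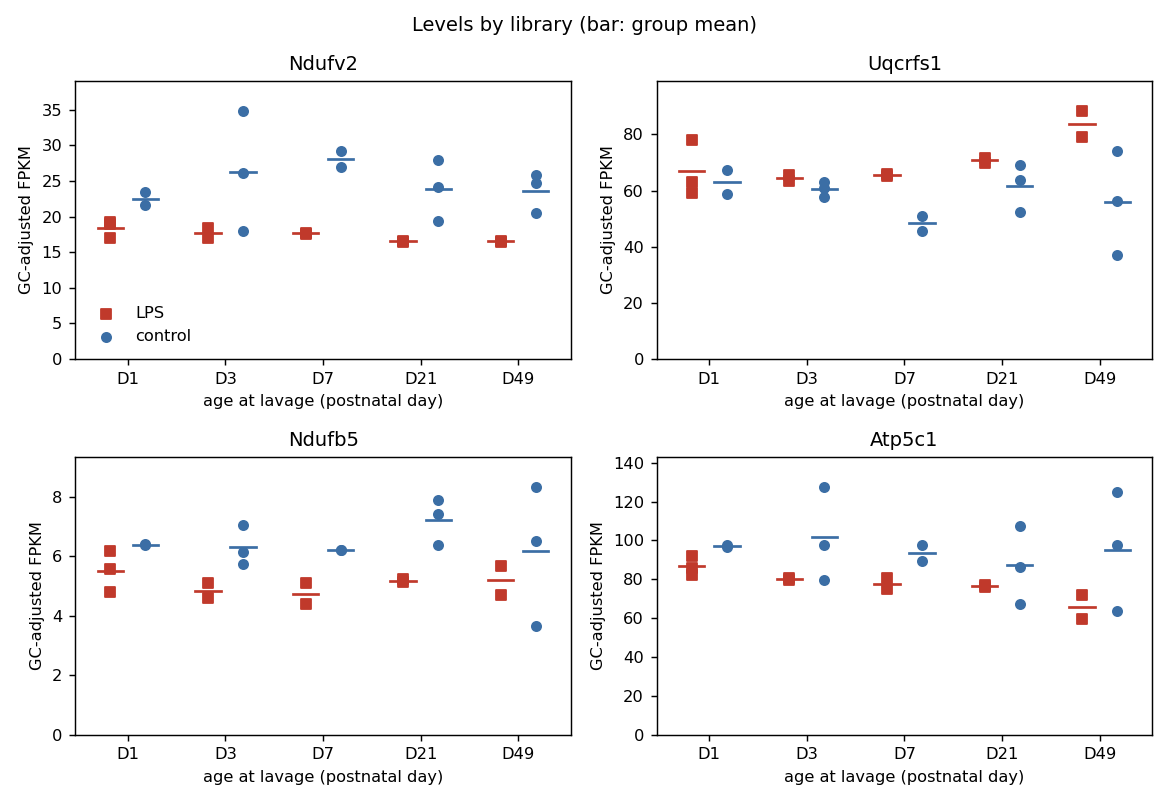
GC-adjusted FPKM of Ndufv2, Uqcrfs1, Ndufb5 and Atp5c1 in each library by age; red squares are LPS, blue circles control libraries, and bars group means. Ndufv2 lies at 16.4 to 19.3 FPKM in LPS and 18.0 to 34.9 FPKM in control libraries, and Uqcrfs1 at 59.2 to 88.4 FPKM in LPS and 37.2 to 74.2 FPKM in control libraries.

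Among genes with complex IV names the member that fell was Cox6a2, the muscle isoform, at 0 to 0.51 FPKM in LPS and 0 to 2.48 FPKM in control libraries after GC adjustment. Its log2 fold change was -2.40 ± 0.64 with an adjusted p of 0.00294 in edgeR's test, and it did not pass in the 14 libraries, at an adjusted p of 0.0917. LPS libraries were all below control libraries at 4 of 5 ages and overlapped them at D21. The 13 skeletal muscle markers were also lower in LPS libraries, except for an overlap at D3, as given above, and their part in this difference was not tested. Cox4i1 (-0.10 ± 0.13), Cox5a (-0.15 ± 0.11), Cox7a2l (0.23 ± 0.12) and Cox8a (0.04 ± 0.16) did not pass.

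In complex V, Atp5c1 was at 59.4 to 92.0 FPKM with a median of 79.8 in LPS and at 63.5 to 128 FPKM with a median of 97.4 in control libraries after GC adjustment. LPS libraries were all below control libraries at 2 of 5 ages. Atp5c1 fell by 0.30 ± 0.11 on the log2 scale (adjusted p = 0.0372, edgeR), and the call held in 11 of 24 fits that left out 1 library and was lost with DESeq2, at an adjusted p of 0.0736. Atp5g1, the lowest of the c subunit genes, fell by 0.62 ± 0.17 with an adjusted p of 0.0046 in edgeR's test, and was at -0.12 without the GC term. Its call held in all 24 fits that left out 1 library, but in only 1 of the 4 alternatives named for Ndufv2 above. The other genes for the same protein did not pass, Atp5g2 being at 0.03 ± 0.15 and Atp5g3 at -0.15 ± 0.11. Among catalytic subunits, Atp5a1 (-0.18 ± 0.10) and Atp5b (0.23 ± 0.11) did not pass on average. Atpif1, which inhibits the enzyme when it runs backwards and is no member, fell by 0.41 ± 0.12 with an adjusted p of 0.00489.

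At single ages fewer members passed. At D1, Atp5d alone rose, where 12.2% of all tested genes passed. At D3 and D7, 0 members passed in edgeR's test, where 14.8% and 17.7% of all tested genes passed; 1 and 4 members were at an unadjusted p under 0.05, and DESeq2 called 0 and 1. At D21, where 21.2% passed, Cox7a2 rose and Ndufa13, Ndufs8 and Atp5g1 fell. At D49, where 19.4% passed, Atp5b and Uqcrh rose and Ndufa13, Ndufa3, Ndufa4 and Atp5g1 fell. Without the GC term 0 members passed at each of the 5 ages, and the D49 calls were lost in the 14 libraries as well, where each D49 group has 1 library. Single libraries mattered too: leaving out D21 LPS 2 gave 0 calls at D21, leaving out D49 LPS 2 gave 0 at D49, and leaving out D49 control 1 gave 14 at D49.

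Atp5b at D49 was the single-age call with the lowest adjusted p. Its GC-adjusted level was 157 and 197 FPKM in LPS cells against 130, 118 and 64.6 FPKM in control cells, and the groups did not overlap. The log2 fold change was 0.76 ± 0.23 (adjusted p = 0.0183, edgeR's quasi-likelihood test), and it held in 23 of 24 fits that left out 1 library. D49 control 3, the lowest library, also had the lowest GC deviation, at -3.17. Cox7a2 at D21 was at 41.2 and 82.0 FPKM in LPS cells against 30.7, 15.2 and 34.7 FPKM in control cells, again without overlap, with a log2 fold change of 1.18 ± 0.37 (adjusted p = 0.0196).

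Between D49 and D1 cells that had both received LPS, 6 members passed, with 15.1% of all tested genes passing. Summed markers of other cells were lower at D49 as well: erythroid 0.193 to 0.302 CPM in D49 LPS against 36.3 to 68.0 CPM in D1 LPS libraries, lung epithelium 16.3 to 22.6 CPM in D49 LPS against 69.6 to 83.2 CPM in D1 LPS libraries, and exocrine gland as given above; their part was not tested. Uqcr10 (complex III), Cox7c (complex IV), Atp5d and Atp5g1 (complex V) and Atp5s (placed in complex V by name only) fell. Cox6b2, a testis isoform at low level, rose. Uqcr10 had a GC-adjusted level of 5.10 and 6.36 FPKM at D49 against 11.3, 25.3 and 21.0 FPKM at D1, and Atp5d 1.76 and 1.75 FPKM at D49 against 3.76, 7.15 and 5.19 FPKM at D1. Neither overlapped, and the log2 fold changes were -1.77 ± 0.50 and -1.62 ± 0.41, with adjusted p-values of 0.0131 and 0.00663 in edgeR's test. Both passed without the GC term, with the smooth offset and by DESeq2. They also passed in the 14 libraries, where each of these groups has 1 library and the spread comes from other groups. Cox6b2 was at 2.09 and 0.76 FPKM at D49 against 0.09, 1.93 and 2.26 FPKM at D1 before GC adjustment, which overlap, and its call was lost without the GC term, with the smooth offset and in the 14 libraries.

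The LPS response itself differed between D49 and D1 for 2 members, with 1.61% of all tested genes passing that test. Atp5d was at 1.76 and 1.75 FPKM in LPS against 2.42, 2.69 and 5.14 FPKM in control cells at D49, and at 3.76, 7.15 and 5.19 FPKM in LPS against 2.77 and 2.89 FPKM in control cells at D1. Cox7c was at 26.9 and 23.2 FPKM in LPS against 29.8, 42.8 and 50.7 FPKM in control cells at D49, and at 40.8, 74.7 and 36.2 FPKM in LPS against 31.6 and 28.4 FPKM in control cells at D1. For both, LPS libraries were below control libraries at D49 and above them at D1, on the GC-adjusted scale. The differences in response were -1.79 ± 0.47 for Atp5d and -1.47 ± 0.38 for Cox7c on the log2 scale, with adjusted p-values of 0.0474 and 0.0426 in edgeR's test. They passed in 9 and 10 of 24 fits that left out 1 library, and neither passed without the GC term, with the smooth offset or in the 14 libraries. The exocrine gland markers also differed in direction between the ages, as given above, and their part was not tested.

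Genes that serve the respiratory chain without being part of it were counted from lists of the pathway. Averaged over ages, where 41.2% of all tested genes passed, 7 of 43 tested assembly factors rose with LPS and 8 fell (34.9%), with a median of -0.15. Ttc19, which acts on complex III and its Rieske protein, rose by 0.74 ± 0.11, and the complex I factors Ndufaf7 (-1.40 ± 0.22) and Tmem126b (-0.67 ± 0.11) fell. Of 13 citric acid cycle genes 2 rose and 4 fell (46.2%), among them Cs at 0.36 ± 0.09, Dld at 0.45 ± 0.10 and Suclg2, a subunit of the GTP-forming succinyl-CoA synthetase, at -0.82 ± 0.12. Of 5 carriers and uncoupling proteins 0 rose and 4 fell, Ucp2 at -0.68 ± 0.11 and Ucp3 at -4.75 ± 0.57 with the lowest values. Of 76 mitochondrial ribosomal proteins 4 rose and 8 fell (15.8%), with Mrpl39 at 1.67 ± 0.13.

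Of 17 genes for mitochondrial DNA transcription and upkeep 0 rose and 2 fell with averaged LPS (11.8%, beside the same 41.2% of all tested genes), Twnk (-0.68 ± 0.17) and Tfb2m (-0.32 ± 0.13). Of 9 nuclear regulators 2 rose and 2 fell (44.4%), Gabpa (0.34 ± 0.10) and Gabpb1 (0.35 ± 0.12), subunits of the ETS-family factor GABP, against Gabpb2 (-0.34 ± 0.11) and Myc (-0.71 ± 0.15), while cytochrome c (Cycs) and Cyc1 did not pass. Between D49 and D1 controls 10.4% of all tested genes passed. There, 0 of 43 assembly factors and 0 of 76 ribosomal proteins passed, with 2 and 11 at an unadjusted p under 0.05. Ucp2 (1.35 ± 0.30) and Ucp3 (4.02 ± 0.97) rose, and the citric acid cycle gene Cs (-0.74 ± 0.24) fell.

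Promoters were searched for the binding letters of factors known to drive these genes, on both strands, in the window from 250 bases before to 50 after the RefSeq start in GRCm38.p6. The table held 71 promoters of 66 of the 81 nuclear members. The NRF1 letters GCGCATGC were in 14.1% of them and in 2.71% of all 32851 promoters, and the YY1 letters AAGATGGC in 14.1% and 2.75%. The GABP letters CCGGAAGT were in 7.0% and 3.89%, and the ERR letters TCAAGGTCA in 2.8% and 0.42%. NRF1's letters overlap their own reverse complement, so 1 site can match on both strands. The 250 bases before the start are shown for the 3 members named above as changed that show the range: Ndufv2, with none of the 4 motifs, Uqcr11, with a GABP match and an NRF1 match that starts 4 bases before the gene start and runs past it, and Sdhb, with an NRF1 match, in capitals. They lie on the minus strand at chr17:66101560-66101809, on the minus strand at chr10:80406822-80407071 and on the plus strand at chr4:140961021-140961270. A match is a description of the letters only.
Ndufv2: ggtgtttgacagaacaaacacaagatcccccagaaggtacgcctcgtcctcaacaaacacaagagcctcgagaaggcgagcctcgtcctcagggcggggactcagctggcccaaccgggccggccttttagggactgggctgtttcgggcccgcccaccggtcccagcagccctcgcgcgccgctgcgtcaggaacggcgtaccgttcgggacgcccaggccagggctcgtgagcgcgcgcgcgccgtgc
Uqcr11: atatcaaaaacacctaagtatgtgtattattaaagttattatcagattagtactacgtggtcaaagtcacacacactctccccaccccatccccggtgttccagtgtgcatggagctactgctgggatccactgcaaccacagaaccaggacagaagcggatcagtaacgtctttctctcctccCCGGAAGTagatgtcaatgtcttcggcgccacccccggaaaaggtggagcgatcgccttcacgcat
Sdhb: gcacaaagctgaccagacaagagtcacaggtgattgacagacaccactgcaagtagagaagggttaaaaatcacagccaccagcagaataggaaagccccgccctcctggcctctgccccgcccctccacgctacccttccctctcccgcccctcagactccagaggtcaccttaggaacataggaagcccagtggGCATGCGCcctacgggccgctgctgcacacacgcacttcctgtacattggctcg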

How the data were processed

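RNA was selected with oligo-dT beads, per the labels' protocols. That protocol is stated for samples above an RNA yield; which libraries were below it, and how those were made, is not stated there. The authors deposited raw counts for each Ensembl gene, together with exonic lengths. STAR, DESeq2 and the build GRCm39 are named per the submitters' processing notes. For versions, the counting tool, its use of strand and the annotation, the entry is: not given in the sources used here. Symbols (52073 genes) and GC content (97.2% of tested genes) came from GENCODE M21, a GRCm38 annotation. Every column was mapped to a sample, and 0 lines lacked a gene.

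Genes with an FPKM of at least 1 in 2 libraries were tested with the quasi-likelihood test of edgeR 4.0.16 (R 4.3.3) on the deposited counts, with TMM scaling, 1 mean per group, all 24 libraries and the library GC deviation as a covariate. The GC deviation was computed from tested genes that are no members, as the median log2 deviation of the GC-richest decile minus that of the GC-poorest. P-values were adjusted by Benjamini-Hochberg over every tested gene, with a threshold of 0.05. Printed levels are TMM-scaled FPKM, except those at the membership threshold and of genes below it, which use library totals. DESeq2 1.42.0 was an alternative test. The fits were tested on simulated data, and near-identical copies of members were sought with BLAST.

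The members and lists were chosen with earlier results of these data known. Named were the mitochondrially encoded members, the 4 largest rises and falls among members that passed in each comparison, catalytic and redox subunits, isoform families, Atpif1 and up to 3 passing genes of each other list; a few further members and list genes were chosen after their values were seen. A member that the rule would name is counted but not reported here by name.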

Additional observations from a re-analysis of the deposited data

Results flagged for a closer look

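Both results below were flagged because the response to LPS differed between D49 and D1 by the test of the difference itself. Cox7c, a small subunit of complex IV, had a difference in log2 response of -1.47, and Atp5d, the delta subunit of complex V, one of -1.79. Without the GC term the values were -1.39 and -1.68, and in the 14 libraries of near-zero GC deviation they were -0.59 and -1.01; neither gene passed in either fit. DESeq2 called both, at -1.54 and -1.86. Cox7c shares 32.9% of its transcript with near-identical copies elsewhere in the genome, so its reads could be split. The longest match, Gm10012, held only 60 counts summed over all libraries.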

How the results depend on the processing

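Counts of members that passed are given here by setting. The share of all tested genes that passed moved with the setting too. For D49 against D1 controls it was 10.4% with the GC term, 42.8% without it and 28.8% with the smooth offset. The counts below stand without that share, so they compare settings and are no result about the members. Without the GC term they were 0 for LPS at D1, D21 and D49, 45 for D49 against D1 controls, 28 for any control age, 31 for D49 against D1 LPS cells and 0 for the difference in response. With the smooth offset they were 0 at D1, 1 at D7, 1 at D21, 1 at D49, 18 averaged, 28 and 23 for the control ages, 23 for LPS cells and 0 for the difference. In the 14 libraries they were 0 at D1, 1 at D3, 6 at D7, 0 at D49, 3 and 1 for the control ages and 0 for the difference. With library totals in place of TMM they were 0 at D1, 2 at D7, 44 averaged, 4 for D49 against D1 controls, 10 for LPS cells and 0 for the difference; that scaling moved the median of all tested genes to -0.21 for averaged LPS and -0.25 for D49 against D1 controls. Scaling from nuclear genes gave 0 at D1, and DESeq2 size factors 2 for D49 against D1 controls. DESeq2 gave 2 at D1, 1 at D7, 2 for D49 against D1 controls and 10 for LPS cells. With no filter there were 0 at D1, 3 for D49 against D1 controls and 17 for any control age; filterByExpr gave 2 at D21, 3 at D49, 0 for D49 against D1 controls and 0 for the difference. Causes were not tested. Both reversals came without the GC term: Ndufs8 averaged was 0.11 and Cox6b2 between LPS cells -0.0027.

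Leaving out 1 library at a time gave 0 to 3 members at D1, 0 to 3 at D3, 0 to 1 at D7, 0 to 9 at D21, 0 to 14 at D49, 5 (without D21 LPS 2) to 18 (without D49 control 3) averaged, 0 to 4 for D49 against D1 controls, 2 to 10 for any control age, 4 to 9 for LPS cells, and 0 (without D1 control 1) to 6 (without D49 control 1) for the difference. Libraries of equal number deviated from their group means together unevenly, with correlations from -0.03 to 0.91. At D1 and D3 they were 0.76 to 0.91. With the GC term they were -0.16 to 0.31. The first libraries of each group also shared a near-zero GC deviation, as given above. Whether the numbers mark a shared preparation was not tested, and they were not taken to pair samples. The replicate block gave 0 members at D1, 2 at D21, 3 at D49, 2 for D49 against D1 controls, 3 for any control age and 0 for the difference.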
